A study of Mus musculus with 16 samples.

Results

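The 10 genes described here encode 6 aldo-keto reductases (Akr1b7, Akr1c6, Akr1c13, Akr1c19, Akr1a1 and Akr7a5) and 4 aldehyde dehydrogenases (Aldh1b1, Aldh2, Aldh3a2 and Aldh1l1), chosen by name from the 24970 genes of the deposited liver count table. RNA was sequenced from mouse liver in 4 groups of 4 libraries. The groups were mice humanized for PXR-CAR-CYP3A4/3A7 given TCPOBOP, the same strain given vehicle, C57BL/6 Ntac wild-type mice given TCPOBOP, and wild-type mice given vehicle. Per the labels, TCPOBOP was given at 3 mg/kg in 2 administrations 24 h apart, the treatment lasted 48 h, and the vehicle was 2% DMSO in corn oil. TCPOBOP activates mouse CAR, the constitutive androstane receptor (gene Nr1i3), and the comparisons ask what it does in livers with the mouse or the human receptors. The labels give neither the genetic background of the humanized strain nor the sex or age of the animals, and p-values measure the spread between these libraries. The human PXR, CAR and CYP3A genes were not analysed here.

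Aldo-keto reductases are soluble, mostly NADPH-dependent enzymes that reduce aldehydes and ketones to alcohols, and aldehyde dehydrogenases oxidise aldehydes to acids with NAD or NADP. In liver both families clear aldehydes that arise from alcohol, lipid peroxidation, steroids, sugars and drugs. CAR and PXR are nuclear receptors that, when activated by foreign compounds, switch on drug-metabolising genes such as Cyp2b10, and Akr1b7 has been described as one of their targets in mouse liver.

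Total counts over all transcript accessions, of which a gene can have more than 1, ran from 14019983 to 16755802 in humanized TCPOBOP libraries, from 12612610 to 16904182 in humanized vehicle, from 30228724 to 37998473 in wild-type TCPOBOP and from 11827994 to 19483951 in wild-type vehicle, so the wild-type TCPOBOP libraries were the deepest. Over the accession kept for each gene, totals ran from 6831626 (wild-type vehicle replicate 1) to 22331760 (wild-type TCPOBOP replicate 2). The fit and the CPM rest on the kept accessions. Mouse Nr1i3 averaged 2.20 CPM (counts scaled to library size) in humanized vehicle livers and 100.3 CPM in wild-type vehicle livers (n = 4 each), lower in the strain labelled humanized by 5.50 log2 units (log2 change -5.50, edgeR adjusted p = 1.213e-10). Cyp2b10 rose in both strains, by 2.59 log2 units in humanized mice (adjusted p = 0.00434) and by 6.05 log2 units in wild-type mice (adjusted p = 2.435e-07). The summed level of 6 hepatocyte markers was 41800 to 58940 CPM in humanized TCPOBOP livers and 47880 to 58330 CPM in humanized vehicle livers. In wild-type mice it was 24850 to 39160 CPM with TCPOBOP and 55510 to 93460 CPM with vehicle. Of the 6 markers, 2 were lower with TCPOBOP in wild-type mice by edgeR (4.99% of all genes) and 4 did not pass. The part of this summed level in the results was not tested. Humanized TCPOBOP replicate 1 and wild-type vehicle replicate 2 had the lowest median correlations with their own groups (0.922 and 0.924), and a member's TCPOBOP change that either of them moved by over 1.5 times is also given without that library. Fewer cells of a type and less RNA per cell cannot be told apart in these bulk livers.

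Akr1b7 was the 1 member of 10 that passed the test in any comparison. It lies on mouse chromosome 6 (34412362 to 34423137, GRCm38.p6, accession NM_009731) beside Akr1b10, the closest of the Akr genes by coding sequence (89.2% identity), and Akr1b8 (84.8%). The aldose reductase gene Akr1b3 lies in the same cluster, and the bile acid enzyme gene Akr1d1 lies further along the chromosome. The 250 bases before the RefSeq start are printed for Akr1b7, for its neighbour Akr1b10 and for Akr1d1, because these 3 aldo-keto reductase genes of the chromosome have the AGGTCA core motif of nuclear receptor sites in that window and differ in response. They span chr6:34412112-34412361 for Akr1b7, chr6:34383997-34384246 for Akr1b10 and chr6:37529923-37530172 for Akr1d1. All are on the plus strand of GRCm38.p6, with capitals for AGGTCA read on the opposite strand (TGACCT). The Akr1d1 gene is annotated to begin at 37529978, so most of its window lies inside the gene, unlike those of Akr1b7 and Akr1b10.
Akr1b7: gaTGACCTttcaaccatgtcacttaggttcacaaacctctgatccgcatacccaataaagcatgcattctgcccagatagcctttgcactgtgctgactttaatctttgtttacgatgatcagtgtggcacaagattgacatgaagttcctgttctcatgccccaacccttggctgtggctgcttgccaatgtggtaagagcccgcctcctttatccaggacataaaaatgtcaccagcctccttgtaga
Akr1b10: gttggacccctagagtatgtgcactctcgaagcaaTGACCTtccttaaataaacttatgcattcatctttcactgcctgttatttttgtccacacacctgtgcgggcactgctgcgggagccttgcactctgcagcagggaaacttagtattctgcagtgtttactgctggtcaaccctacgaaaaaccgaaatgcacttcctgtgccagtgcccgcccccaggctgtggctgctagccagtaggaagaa
Akr1d1: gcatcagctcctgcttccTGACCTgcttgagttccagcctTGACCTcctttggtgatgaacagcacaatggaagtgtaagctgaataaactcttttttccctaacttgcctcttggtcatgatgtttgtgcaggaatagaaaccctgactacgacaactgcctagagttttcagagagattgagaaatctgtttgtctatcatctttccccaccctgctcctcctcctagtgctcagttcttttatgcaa
The motif stood at -248 to -243 from the start in Akr1b7, at -215 to -210 in Akr1b10, and at both -232 to -227 and -210 to -205 in Akr1d1. Both strands of each window were searched, and AGGTCA was present in 14.0% of the 32851 RefSeq promoter windows of the same length. The Akr1b8 window had no AGGTCA, and no window of Akr1b3 was searched. Of the 9 members with a RefSeq window, Akr7a5 and Aldh1l1 also had AGGTCA. Akr7a5 had AGTTCA as well, a variant core found in 11.8% of windows, and Akr1c6 had TATAAA, found in 12.4%. No member window held a pair of these cores as a direct repeat with 4 bases between, which 0.0244% of all windows held, or TGACNNNGC, the antioxidant response core, which 10.2% held. The Aldh3a2 window lies wholly and the Akr1c19 window mostly inside the annotated gene. Those of Akr1c6, Akr1c13, Akr7a5 and Aldh1l1 reach into theirs in part. A match describes letters only, and no match says nothing about binding. Aligned end to end, the Akr1b7 window was 43.5% identical to that of Akr1b10 and 46.3% identical to that of Akr1b8. It was 42.6% identical to that of Akr1d1, which lies mostly inside its gene. Unrelated windows were not aligned, so these values show no particular likeness.

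Akr1b7, a reductase of lipid peroxidation aldehydes best known from mouse adrenal and vas deferens, was at 2.81, 1.67, 1.64 and 1.19 CPM in humanized TCPOBOP livers and at 2.07, 1.40, 1.68 and 3.34 CPM in humanized vehicle livers. In wild-type livers it was at 89.2, 117, 124 and 142 CPM with TCPOBOP and at 1.32, 5.23, 0.469 and 0.728 CPM with vehicle. All 4 wild-type TCPOBOP libraries lay far above the other 12, which overlapped one another. CPM here are scaled by TMM (trimmed mean of M-values) factors. Counts behind these values were 10 to 32 in humanized libraries, 1629 to 2954 in wild-type TCPOBOP and 5 to 55 in wild-type vehicle.

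In wild-type mice Akr1b7 rose 60.0-fold with TCPOBOP, by 5.91 ± 0.51 log2 units (SE, 95% interval 4.84 to 6.98), with an edgeR quasi-likelihood adjusted p of 4.749e-07 (Benjamini-Hochberg over 12913 genes) and all 4 libraries above the vehicle range. In the humanized mice its log2 change was -0.26 ± 0.55 (interval -1.41 to 0.90, adjusted p = 0.864), with 1 of 4 libraries below the vehicle range, and it was -0.50 without TCPOBOP replicate 1. The interaction, which is the humanized change minus the wild-type change, was -6.16 ± 0.73 log2 units (interval -7.70 to -4.63, adjusted p = 7.478e-05), so the response differed between strains. Under vehicle alone the strains differed by 0.13 ± 0.53 log2 units, humanized over wild type (interval -0.98 to 1.24, adjusted p = 0.876). That last value rests on wild-type vehicle replicate 2, the highest of its group at 5.23 CPM. Without it the strain difference was 1.43 log2 units (adjusted p = 0.0265) and the wild-type TCPOBOP change was 7.21.

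**Figure D1:**
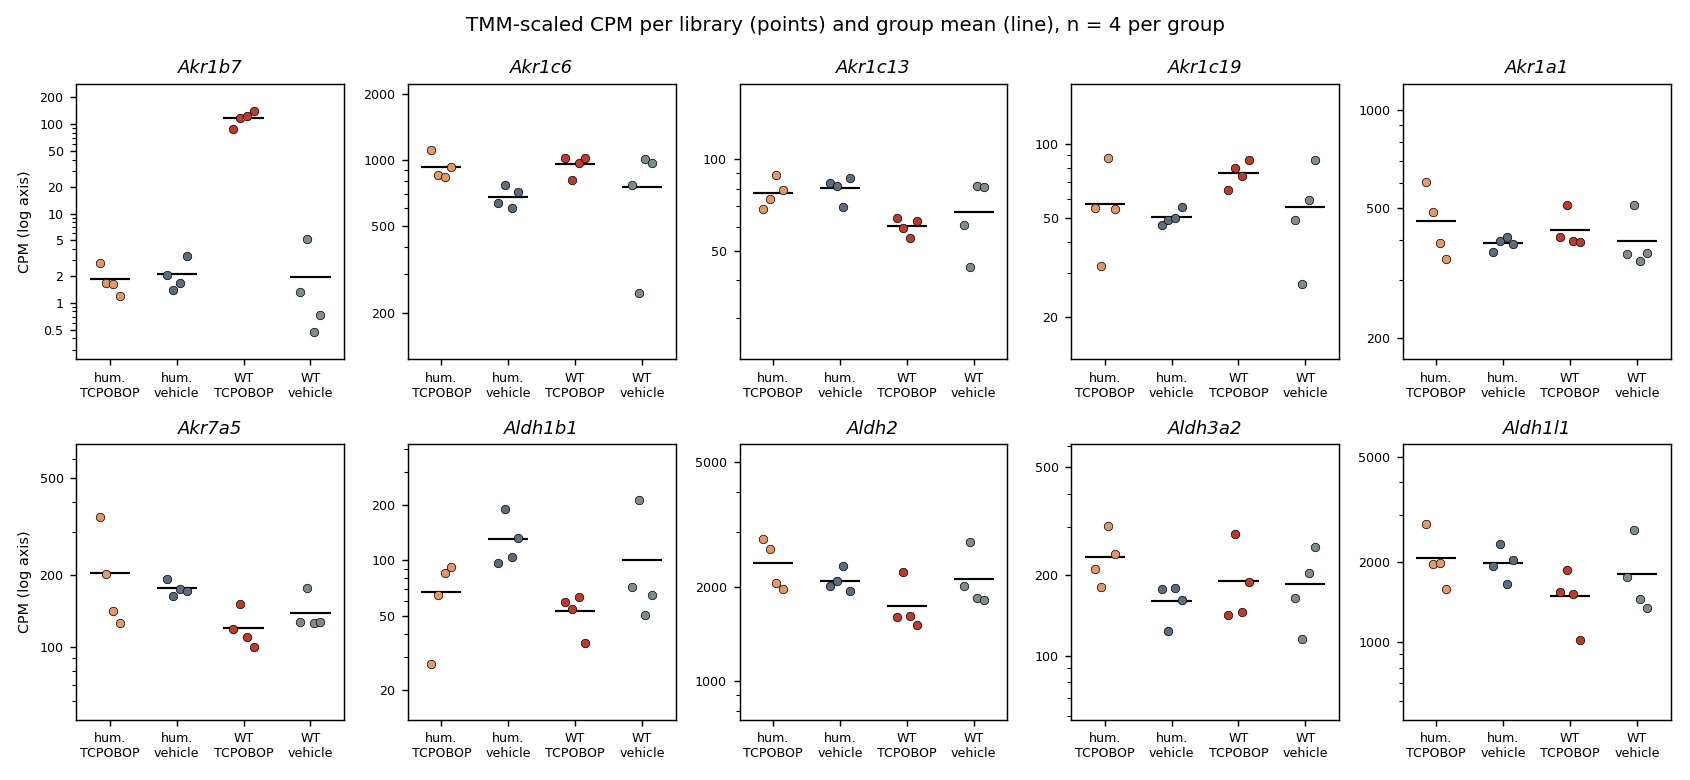
TMM-scaled CPM (log axis) of the 10 members in each library (points) with the group mean (line), 4 libraries per group; hum. is humanized and WT is wild type. Akr1b7 is at 89.2 to 142 CPM in wild-type TCPOBOP livers and at 0.469 to 5.23 CPM in all others. The groups of the other members lie closer together than that, though Akr1c6, Aldh1b1 and Aldh3a2 do not overlap between humanized TCPOBOP and vehicle.

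Because Akr1b7 is abundant in adrenal cortex, markers of that tissue were read beside it. Mc2r, the corticotropin receptor, had 0 counts in all 16 libraries. The 6 adrenal markers summed to 2.66 to 6.84 CPM in humanized TCPOBOP, 2.91 to 8.41 CPM in humanized vehicle, 2.01 to 3.18 CPM in wild-type TCPOBOP and 1.91 to 6.18 CPM in wild-type vehicle livers. Their sum was not higher in wild-type TCPOBOP livers, where Akr1b7 was high, but it was low in every group. Of the 6 markers, 2 had enough counts to test, and neither passed in any comparison. Whether adrenal tissue contributed to the Akr1b7 values was not tested.

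Sharing of sequence with relatives was limited for Akr1b7: 2.52% of its 50-base stretches also occur in Akr1b10, Akr1b8 or the predicted gene Gm15806. Akr1b10 averaged 0.829 ± 0.4998 CPM in humanized TCPOBOP and 1.47 ± 0.698 CPM in humanized vehicle livers, and 2.72 ± 0.586 CPM in wild-type TCPOBOP and 1.86 ± 1.12 CPM in wild-type vehicle livers (SD, n = 4). Akr1b8 averaged 2.58 to 3.69 CPM over the groups. Neither passed the test in any comparison.

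Set against the other members per length of transcript, wild-type TCPOBOP brought Akr1b7 to 92.3 ± 17.2 CPM per kb, a level like that of Akr7a5 in the same livers (93.3 ± 17.1). Under wild-type vehicle Akr1b7 was the lowest member at 1.51 ± 1.74 CPM per kb. There, Aldh1l1 (590), Aldh2 (546) and Akr1c6 (536 CPM per kb) led with ranges that overlapped one another. Akr1c6 ran from 176.4 to 722.8 CPM per kb, across the whole range of Akr1a1 (242.2 to 361.1), so the order of those 2 did not hold in every library. By mean, Akr1a1 (279) and Akr7a5 (108) followed, and Aldh3a2 (59.6), Akr1c13 (53.0), Akr1c19 (44.5) and Aldh1b1 (43.5) formed a low group whose ranges overlapped. For Aldh3a2 the length was that of a different transcript of the gene than the one counted.

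Over the 16 libraries, tested genes whose log2(CPM + 1) pattern was much like that of Akr1b7 included D17H6S56E-5, Exosc8, Cdca3 and Pif1, with Pearson r of 0.984, 0.982, 0.982 and 0.981. Cdca3 acts in mitotic entry and Pif1 is a DNA helicase. These correlations are descriptions over libraries that also differ in depth, with the 4 high points all in the deepest group.

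The other 9 members did not pass the test in any of the 4 comparisons. In humanized mice with TCPOBOP, 0 of 10 members passed, against 2.52% of all genes (1.32% higher and 1.19% lower). Of the 10, 2 had an unadjusted p under 0.05 and DESeq2 also called 0. In wild-type mice 1 of 10 passed, against 13.1% of all genes (8.1% higher and 4.99% lower). For the interaction it was 1 of 10, against 7.46% (3.48% higher and 3.98% lower). Between strains under vehicle 0 of 10 passed, against 16.1% (7.11% higher and 8.95% lower), where DESeq2 also called 0 and no member had an unadjusted p under 0.05 (0 of 10). The median log2 change of the 10 members was 0.18 in humanized and -0.05 in wild-type mice, 0.11 for the interaction and 0.06 between strains, and the median over all genes was 0.02, -0.02, 0.00 and 0.00. Log2 changes of the 9 ran from -0.95 to 0.55 in humanized mice and from -0.91 to 0.46 in wild-type mice. Their 95% intervals lay within 1 log2 unit of 0 for 6 of 9 and 7 of 9 members, so changes of 2-fold are outside the interval for those and inside it for the rest.

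**Figure D2:**
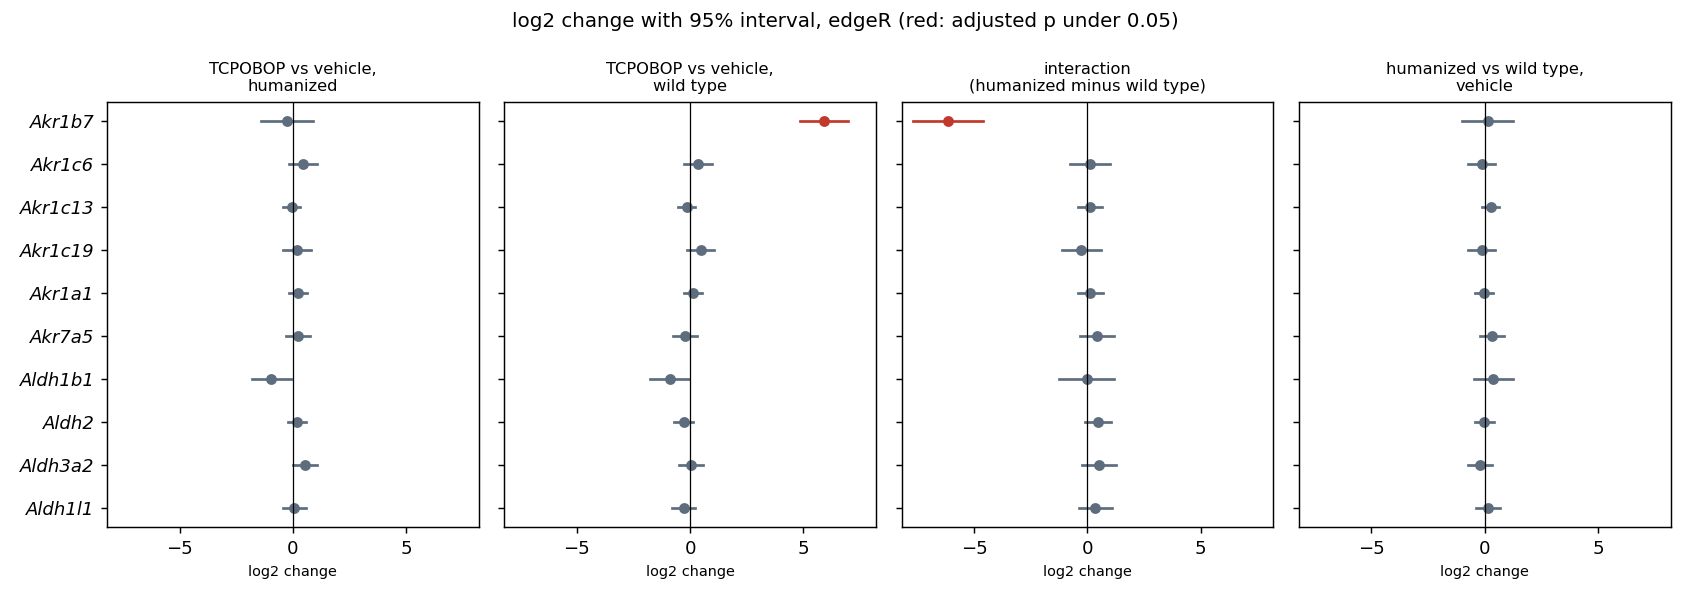
Log2 change of each member with its 95% interval (edgeR) for TCPOBOP against vehicle in humanized and in wild-type mice, for the interaction and for humanized against wild-type vehicle; red marks an adjusted p under 0.05. Akr1b7 stands at 5.91 in wild-type mice and at -6.16 for the interaction, and the other 9 members lie between -0.95 and 0.55 in all 4 panels.

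Among the AKR1C genes on chromosome 13, Akr1c6 (4434311 to 4457530) encodes the mouse liver 17-beta-hydroxysteroid dehydrogenase of type 5. It was at 1112, 851, 834 and 925 CPM in humanized TCPOBOP livers and at 631, 770, 599 and 714 CPM in humanized vehicle livers. The 2 groups did not overlap, yet the log2 change of 0.46 ± 0.29 missed the threshold (interval -0.16 to 1.07, adjusted p = 0.446). Groups that did not overlap were found for 3 of 10 members in this comparison (Akr1c6, Aldh1b1 and Aldh3a2), against 9.95% of all genes. In wild-type mice this held for 1 of 10 (Akr1b7), against 20.9%, and between strains under vehicle for 0 of 10, against 26.4%. In wild-type mice Akr1c6 was at 1014, 807, 971 and 1013 CPM with TCPOBOP and at 769, 246, 1009 and 967 CPM with vehicle, for a log2 change of 0.35 ± 0.29 (adjusted p = 0.525). Wild-type vehicle replicate 2 was the lowest of its group, and without it the change was 0.056.

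Akr1c13 (chromosome 13, 4191168 to 4205604) was at 68.4 to 88.5 CPM in humanized TCPOBOP and 69.5 to 86.4 CPM in humanized vehicle livers, and at 55.1 to 64.0 CPM in wild-type TCPOBOP and 44.1 to 81.7 CPM in wild-type vehicle livers. Its log2 changes were -0.05 in humanized mice (adjusted p = 0.926) and -0.15 in wild-type mice (adjusted p = 0.677). The first was 0.030 without humanized TCPOBOP replicate 1, and the second was -0.31 without wild-type vehicle replicate 2. Akr1c13 is uncertain as a single gene, since 28.6% of its 50-base stretches also occur in Akr1c12, whose coding sequence is 96.2% identical. Akr1c19 (chromosome 13, 4233503 to 4248361) was at 54.8, 32.1, 87.3 and 54.3 CPM in humanized TCPOBOP and at 47.1 to 55.5 CPM in humanized vehicle livers. Wild-type livers ran from 64.8 to 85.8 CPM with TCPOBOP and from 27.0 to 86.0 CPM with vehicle, so the groups overlapped in both strains. Its log2 changes were 0.18 (adjusted p = 0.803) and 0.46 ± 0.29 (adjusted p = 0.356), the second being 0.23 without wild-type vehicle replicate 2.

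Akr1a1 on chromosome 4 (116636510 to 116651674) encodes the aldehyde reductase that makes gulonate from glucuronate on the path to ascorbate. It was at 349 to 605 CPM in humanized TCPOBOP and at 367 to 409 CPM in humanized vehicle livers, and at 393 to 512 CPM in wild-type TCPOBOP and 344 to 513 CPM in wild-type vehicle livers. Its log2 changes were 0.23 (adjusted p = 0.568) and 0.11 (adjusted p = 0.793) in humanized and wild-type mice, and they were 0.088 without humanized TCPOBOP replicate 1 and 0.26 without wild-type vehicle replicate 2. Akr7a5 (chromosome 4, 139310720 to 139318786), the mouse aflatoxin aldehyde reductase, was at 346, 201, 141 and 126 CPM in humanized TCPOBOP and 163 to 193 CPM in humanized vehicle livers, so that humanized TCPOBOP replicate 1 alone stood above the vehicle range by a wide margin. Wild-type livers ran from 100.4 to 151 CPM with TCPOBOP and from 126 to 175 CPM with vehicle, and its log2 changes were 0.21 (adjusted p = 0.715) and -0.21 (adjusted p = 0.681). Without humanized TCPOBOP replicate 1 the first was -0.15, and without wild-type vehicle replicate 2 the second was -0.079.

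Aldh1b1 (chromosome 4, 45799022 to 45804608) encodes a mitochondrial aldehyde dehydrogenase, the closest to Aldh2 of those described (69.4% coding identity). It was at 27.5, 64.7, 85.8 and 92.5 CPM in humanized TCPOBOP livers and at 96.7, 189, 104 and 132 CPM in humanized vehicle livers, with no overlap. The log2 change was -0.95 ± 0.41 (interval -1.81 to -0.08, unadjusted p = 0.0334, adjusted p = 0.235). Wild-type livers were at 59.8, 54.8, 63.1 and 35.8 CPM with TCPOBOP and at 72.2, 212, 50.9 and 64.8 CPM with vehicle, for a log2 change of -0.91 ± 0.41 (unadjusted p = 0.0398, adjusted p = 0.172). Vehicle replicate 2 stood at 212 CPM, and without it the change was -0.23. Without the same library the strain difference under vehicle became 1.05 log2 units (adjusted p = 0.0395), against 0.38 with all libraries (adjusted p = 0.518).

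Aldh2 (chromosome 5, 121566027 to 121593824), the mitochondrial enzyme that oxidises acetaldehyde, was among the most abundant members. It was at 1963 to 2846 CPM in humanized TCPOBOP and 1942 to 2325 CPM in humanized vehicle livers, and at 1505 to 2230 CPM in wild-type TCPOBOP and 1812 to 2775 CPM in wild-type vehicle livers. Log2 changes were 0.18 (adjusted p = 0.683) and -0.28 (adjusted p = 0.422), and the groups overlapped. They were 0.11 without humanized TCPOBOP replicate 1 and -0.12 without wild-type vehicle replicate 2. Aldh3a2 (chromosome 11, 61223417 to 61267528), the fatty aldehyde dehydrogenase of the endoplasmic reticulum, was at 211, 180, 305 and 239 CPM in humanized TCPOBOP and at 177, 124, 178 and 162 CPM in humanized vehicle livers. These groups did not overlap, and the log2 change was 0.55 ± 0.26 (interval 0.01 to 1.08, unadjusted p = 0.0472, adjusted p = 0.273). In wild-type mice Aldh3a2 ran from 142 to 283 CPM with TCPOBOP and from 116 to 253 CPM with vehicle (log2 change 0.04, adjusted p = 0.948, and -0.13 without vehicle replicate 2). Aldh1l1 (chromosome 6, 90550768 to 90599171) encodes the cytosolic 10-formyltetrahydrofolate dehydrogenase, which oxidises the formyl group to carbon dioxide and releases tetrahydrofolate. It ran from 1579 to 2780 CPM in humanized TCPOBOP and from 1658 to 2335 CPM in humanized vehicle livers, and from 1016 to 1861 CPM in wild-type TCPOBOP and 1339 to 2653 CPM in wild-type vehicle livers. Its log2 changes were 0.06 (adjusted p = 0.935) and -0.28 (adjusted p = 0.547), against -0.089 without humanized TCPOBOP replicate 1 and -0.031 without wild-type vehicle replicate 2.

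Spread among the 4 libraries of a group differed by group. The median coefficient of variation of the 10 members was 24.6% in humanized TCPOBOP and 10.4% in humanized vehicle livers, and 18.5% in wild-type TCPOBOP and 32.3% in wild-type vehicle livers. Akr1b7 in wild-type vehicle, at low counts, was the most variable at 114.9%. Between strains under vehicle, the 9 other members differed by -0.20 to 0.38 log2 units, with adjusted p of 0.297 to 0.968. With both low-correlation libraries left out, a choice made after seeing the data, the strain comparison called 4 members: Akr1b7 at 1.45 log2 units (adjusted p = 0.00987), Aldh1b1 at 1.06 (0.00419), Akr7a5 at 0.47 (0.0389) and Akr1c6 at -0.43 (0.0393), against 4505 of 13011 genes in that fit (34.6%) and 2074 of 12913 with all libraries (16.1%). The share of members called there lay near that of all genes.

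Relatives of the members are given from lists of the same families, counted over genes with enough counts to test. Beside them stand the shares of all genes called: 2.52% in humanized mice, 13.1% in wild-type mice, 7.46% for the interaction and 16.1% between strains. Of 11 other Akr genes, 8 were tested. In humanized mice 0 passed (edgeR, 2 at an unadjusted p under 0.05), in wild-type mice 2 rose and 1 fell, and for the interaction 1 was higher and 1 lower. Akr1d1, the 5-beta-reductase of bile acid synthesis, was at 85.9, 119, 228 and 183 CPM in humanized TCPOBOP and 130, 150, 109 and 124 CPM in humanized vehicle livers. Wild-type livers were at 512, 449, 585 and 588 CPM with TCPOBOP and 178, 120, 164 and 175 CPM with vehicle. Its log2 change was 0.27 in humanized mice (adjusted p = 0.615), it rose by 1.74 ± 0.25 log2 units in wild-type mice (adjusted p = 9.144e-05), and the interaction was -1.48 (adjusted p = 0.0124). Akr1b3, the aldose reductase gene, rose by 1.89 ± 0.32 log2 units in wild-type mice (adjusted p = 5.533e-04), to 6.75 ± 1.27 CPM with TCPOBOP against 1.84 ± 0.71 CPM with vehicle. Its interaction of -1.51 missed the threshold (adjusted p = 0.0738), and 59.9% of its 50-base stretches also occur in predicted pseudogenes, so its value is uncertain.

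Akr1c20, next to Akr1c6 on chromosome 13 and 92.3% identical in coding sequence, averaged 63.2 ± 10.2 CPM in humanized TCPOBOP and 37.2 ± 4.75 CPM in humanized vehicle livers, and 34.4 ± 6.81 CPM in wild-type TCPOBOP and 56.9 ± 19.3 CPM in wild-type vehicle livers. The change was 0.76 log2 units in humanized mice (adjusted p = 0.0883) and -0.72 in wild-type mice (adjusted p = 0.0423), the second losing its call in 8 of 16 fits that left out 1 library. That wild-type call was also lost in 4 of 11 other settings. The interaction was 1.49 (adjusted p = 0.00862) and kept its call in all 16 fits that left out 1 library and in all 9 other settings. Akr1c14, the 3-alpha-hydroxysteroid dehydrogenase, had log2 changes of 0.94 in humanized (adjusted p = 0.149) and 0.93 in wild-type mice (adjusted p = 0.0800), neither past the threshold.

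**Figure D3:**
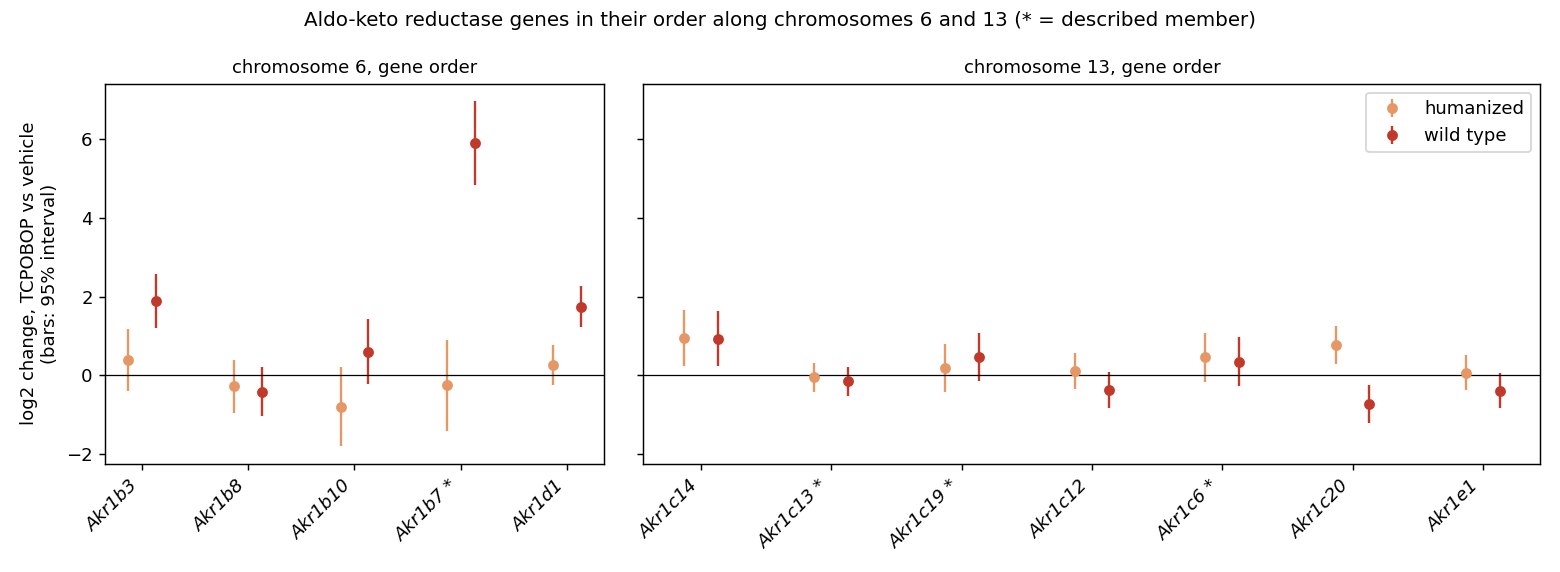
Log2 change with TCPOBOP against vehicle (points, with 95% intervals) for tested Akr genes in their order along chromosomes 6 and 13, humanized left of wild type. Akr1b7 at 5.91 in wild-type mice stands beside Akr1b10 at 0.60 and Akr1b8 at -0.41, and Akr1c20 is at 0.76 in humanized and -0.72 in wild-type mice.

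Of 17 other Aldh genes, 12 were tested; 2 rose in humanized and 2 rose in wild-type mice with TCPOBOP. In each strain these were Aldh1a1, the cytosolic retinal dehydrogenase, and its neighbour Aldh1a7 on chromosome 19. Aldh1a1 averaged 1839 ± 447 CPM in humanized TCPOBOP and 864 ± 49.6 CPM in humanized vehicle livers, a log2 change of 1.09 (adjusted p = 0.0493) that lost its call in 14 of 16 fits with 1 library left out. That call was also lost in 4 of 10 other settings. In wild-type mice Aldh1a1 averaged 2211 ± 170 CPM with TCPOBOP and 809 ± 381 CPM with vehicle, a rise of 1.45 (adjusted p = 0.00198), and the interaction of -0.36 did not pass (adjusted p = 0.675). Aldh1a7 averaged 265 ± 17.1 CPM in humanized TCPOBOP and 171 ± 22.9 CPM in humanized vehicle livers, a log2 change of 0.63 (adjusted p = 0.0366, lost in 8 of 16 fits with 1 library left out and in 4 of 10 other settings). In wild-type livers with TCPOBOP it averaged 834 ± 26.0 CPM, against 201 ± 27.3 CPM with vehicle, and rose by 2.05 log2 units (adjusted p = 1.127e-07). The smaller response in humanized mice passed the interaction test at -1.42 log2 units (adjusted p = 5.937e-04). Under vehicle the strain comparison called 1 of the 12, Aldh18a1, a proline synthesis gene, at -1.95 log2 units (adjusted p = 0.0296), which was -1.05 (adjusted p = 0.123) without wild-type vehicle replicate 2. That call was lost in 4 of 16 fits with 1 library left out and in 3 of 10 other settings.

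**Figure D4:**
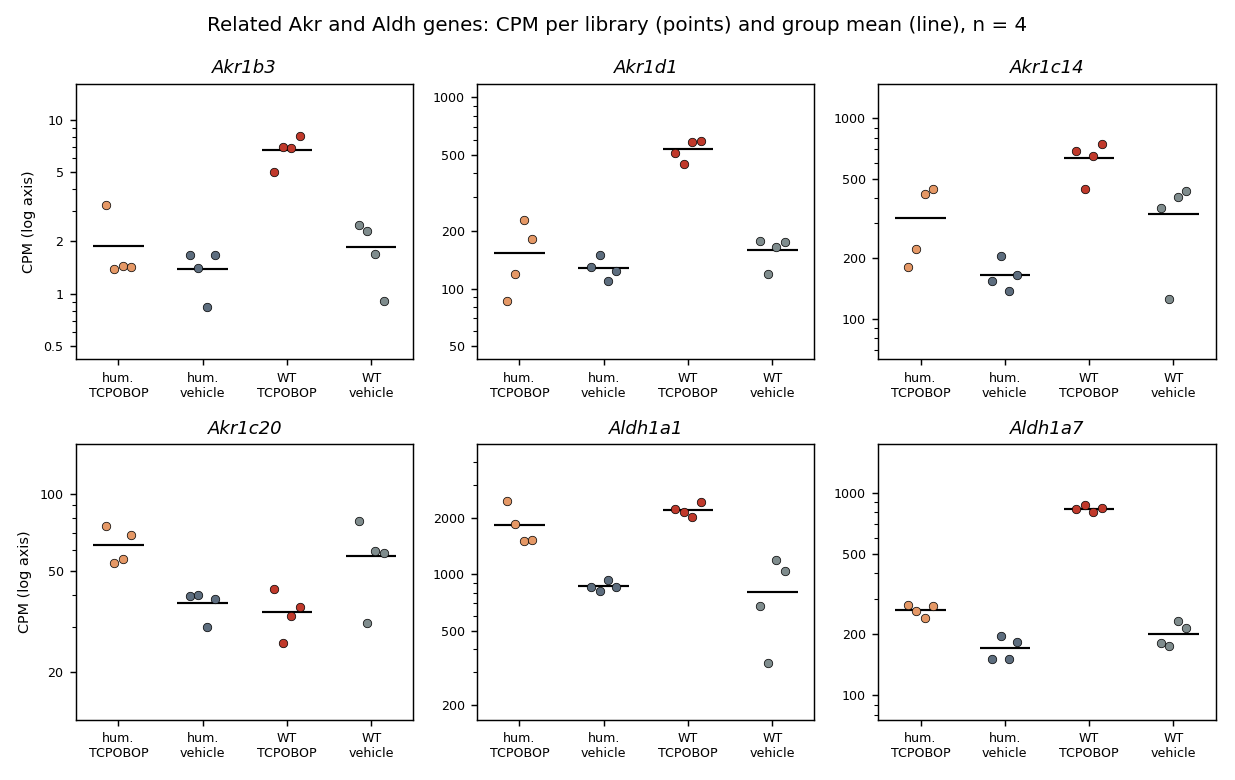
TMM-scaled CPM (log axis) of 6 related genes per library (points) with group means (lines), 4 libraries per group; hum. is humanized and WT is wild type. Akr1d1 and Aldh1a7 are highest in wild-type TCPOBOP livers, and Aldh1a1 is higher with TCPOBOP in both strains.

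Lists of enzymes that act near the members were read the same way, beside the same shares of all genes. Of 16 other carbonyl and alcohol enzymes, 0 passed in humanized mice with TCPOBOP (5 at an unadjusted p under 0.05), 4 rose and 2 fell in wild-type mice, and 2 were higher and 4 lower for the interaction. Ptgr1, an alkenal reductase, rose by 1.68 log2 units (adjusted p = 6.507e-05), Nqo1, a quinone reductase, by 1.62 (5.237e-04), and Cbr1, a carbonyl reductase, by 1.58 (7.439e-04) in wild-type mice, and Hsd11b1, which activates glucocorticoids, fell by 0.98 (5.905e-04). Their interactions all passed, at -1.60, -2.48, -2.22 and 1.06 log2 units. Adh4, an alcohol dehydrogenase, also passed there, at 1.83 (adjusted p = 0.0105). Its fall of 1.11 in wild-type mice (adjusted p = 0.0151) lost its call in 2 of 16 fits with 1 library left out, in a fit of the compared groups alone (adjusted p = 0.0705) and with the replicate number as a block in the wild-type groups alone (adjusted p = 0.0918). Nqo2, a relative of Nqo1, had an interaction of -0.76 (adjusted p = 0.0475) that lost its call in 12 of 16 fits with 1 library left out and in 6 of 9 other settings. Under vehicle Nqo1 was 1.46 log2 units higher in humanized mice (adjusted p = 0.00551).

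Around Akr1a1, 7 of 8 glucuronate and ascorbate genes were tested: 0 passed in humanized mice (1 at an unadjusted p under 0.05), 1 rose and 1 fell in wild-type mice, and 1 was higher and 1 lower for the interaction. Ugdh, which makes UDP-glucuronate, rose by 1.37 log2 units in wild-type mice (adjusted p = 3.972e-05), with an interaction of -1.25 (adjusted p = 0.00455). Gulo, the last enzyme of ascorbate synthesis, fell by 0.58 in wild-type mice (adjusted p = 0.0223), with an interaction of 1.02 (adjusted p = 0.0105). The fall of Gulo lost its call in 3 of 16 fits with 1 library left out and in 2 of 11 other settings. Around Aldh3a2, 10 of 11 matched fatty aldehyde and phytol genes were tested: 0 passed in humanized mice (3 at an unadjusted p under 0.05), 1 rose and 3 fell in wild-type mice, and 3 were higher and 1 lower for the interaction. Sgpl1, the lyase that releases a fatty aldehyde from sphingosine phosphate, rose by 1.34 log2 units in wild-type mice (adjusted p = 8.441e-06), with an interaction of -1.35 (adjusted p = 7.174e-04). Slc27a2, a very-long-chain fatty acid transporter and synthetase, fell by 1.14 in wild-type mice (adjusted p = 0.00166), with an interaction of 1.64 (adjusted p = 0.00324). Acox3, a branched-chain acyl-CoA oxidase, fell by 0.62 in wild-type mice (adjusted p = 0.0101), with an interaction of 1.04 (adjusted p = 0.00621). The fall of Acox3 lost its call in 1 of 11 other settings, the fit with no normalization factors. Hacl1, a lyase of phytanic acid breakdown, fell by 0.74 (adjusted p = 0.0377), a call lost in 7 of 16 fits with 1 library left out, and Pecr, a trans-enoyl-CoA reductase, had an interaction of 0.91 (adjusted p = 0.0440), lost in 10 of them. In other settings the call of Hacl1 was lost in 2 of 11 and that of Pecr in 4 of 9.

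Around Aldh1l1, 17 folate one-carbon genes were tested: 2 rose and 0 fell in wild-type mice, and 0 were higher and 2 lower for the interaction. Mthfd2, a mitochondrial folate dehydrogenase, rose by 1.74 log2 units in wild-type mice (adjusted p = 0.00199), with an interaction of -2.04 (adjusted p = 0.0222, a call lost in 2 of 16 fits with 1 library left out). Tyms, thymidylate synthase, rose by 1.47 (adjusted p = 0.00171), with an interaction of -1.44 (adjusted p = 0.0385, lost in 11 of 16 and in 1 of 9 other settings).

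Between strains under vehicle, 3 of the 17 folate genes were lower in humanized livers, 2 of 7 glucuronate genes and 2 of 10 fatty aldehyde genes were lower, and 1 of 16 carbonyl genes was higher. Over all genes, 8.95% were lower and 7.11% higher in this comparison. Folr2, a folate receptor, was lower (-1.86 log2 units, adjusted p = 0.00450), as were the folate carrier gene Slc19a1 (-1.04, adjusted p = 0.0265) and the glycine cleavage gene Amt (-0.67, adjusted p = 0.0451). Gusb, the lysosomal glucuronidase, differed by -0.75 (adjusted p = 0.0134) and Gulo by -0.54 (adjusted p = 0.0321). Acox3 differed by -0.69 (adjusted p = 0.0113) and Acsl1, a long-chain acyl-CoA synthetase, by -0.82 (adjusted p = 0.0342). Leaving out 1 library ended the call in 10 of 16 fits for Amt, in 5 each for Slc19a1, Gulo and Acsl1 and in 1 for Gusb. Of 10 other settings, 3 ended the call for Amt and 1 each for Slc19a1, Gulo and Acsl1. Kupffer cell markers moved with this comparison: 5 of 6 were lower in humanized vehicle livers, where they summed to 163 to 301 CPM, against 359 to 766 CPM in wild-type vehicle livers. Sinusoidal endothelial markers summed to 142 to 170.3 CPM in humanized and 257.7 to 465.9 CPM in wild-type vehicle livers. Of these 5 markers, 1 was lower by the test (8.95% of all genes) and 4 did not overlap (26.4% of all genes). Stellate cell markers summed to 166.3 to 180.6 CPM in humanized and 202.6 to 243.7 CPM in wild-type vehicle livers, with 1 of 5 lower. The part of these cells in the results was not tested.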

How the data were processed

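Polyadenylated liver RNA was sequenced in 16 libraries, 4 per group. Per the submitters' processing notes, STAR, DESeq2 and the mm10 genome were used. Their versions, strandedness and the counting program were not given in the sources used here. Counts were deposited by the authors as whole numbers for 40458 RefSeq accessions. Among counts of 20 or more, 74.9% were even, near the 75% that halved counts rounded to even would give, so values may be halved counts. Accessions were joined to symbols (40219 through RefSeq and 125 through GENCODE, with 114 unmatched), and a gene's value is that of the accession whose mean count was highest.

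All 16 libraries were fitted in edgeR 4.0.16 (limma 3.58.1, R 4.3.3) with filterByExpr, TMM and quasi-likelihood F tests, two-sided, which kept 12913 genes. The common biological coefficient of variation was 0.259, with 12 residual degrees of freedom. Adjusted p-values are Benjamini-Hochberg values with 0.05 as the threshold. Each edgeR SE was back-calculated as the absolute log2 change over the square root of the F statistic. The 95% intervals were built from that SE with a t quantile. DESeq2 1.42.0 was an alternative. The same kind of edgeR fit was run on simulated counts with a single dispersion, only for wild-type TCPOBOP against vehicle. The other comparisons and the intervals were not tested in that way. The members and lists were chosen with earlier results of these data known. The named genes are the 10 members, Cyp2b10, Nr1i3, Nr1i2 and Cyp3a11 (the last 2 at -2.85 and -12.38 log2 units, humanized against wild-type vehicle), up to 4 genes per other list and comparison with the smallest p past the threshold, and genes among the 5 most like Akr1b7. Some results under this rule, with the list counts that rest on them, are not reported here. Akr1c14, Nqo2, the wild-type value of Adh4 and the neighbours Akr1b8 and Akr1b10 were named after their values were seen. Same-numbered wild-type TCPOBOP and vehicle libraries deviated together (r of 0.157, 0.620, 0.258 and 0.223), and the labels give no reason for it. Humanized libraries did not (-0.284 to 0.103). Differently numbered libraries were not compared in this way, so whether the shared number matters was not tested. Promoter sequences are RefSeq's, on GRCm38.p6. Coding sequences replaced a planned comparison of proteins, for which no table was used here. Of the fatty aldehyde list, 1 gene was not matched.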

Additional observations from a re-analysis of the deposited data

Results flagged for a closer look

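Values of 3 members in wild-type vehicle and 2 in wild-type TCPOBOP livers stood apart from the other 3 libraries of their group by Dixon's test, each in replicate 2. Akr1a1 was at 511.7 CPM in wild-type TCPOBOP replicate 2, against 392.6 to 408.2 CPM in the others, and at 512.7 CPM in wild-type vehicle replicate 2, against 343.9 to 365.6 CPM. Aldh2 was at 2230 CPM in wild-type TCPOBOP replicate 2, against 1505 to 1610 CPM. In wild-type vehicle replicate 2, Akr7a5 was at 175.4 CPM, against 126.4 to 127.4 CPM, and Aldh1b1 at 212.3 CPM, against 50.88 to 72.19 CPM. The test was run on 40 sets of 4 values, and chance flags about 1 in 20. The response of Akr1b7 to TCPOBOP differed between the strains, by -6.16 log2 units, humanized minus wild type.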

How the results depend on the processing

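Akr1b7 was called in wild-type mice and for the interaction in every fit run, at 5.57 to 7.21 and at -7.46 to -5.82 log2 units when 1 library was left out. With the replicate number as a block, 209 genes were called in humanized mice, Akr1b7 was at 6.05 in wild-type mice (6.13 in the wild-type groups alone), and no call of a member changed. DESeq2 called 765 genes in humanized mice and 1477 for the interaction, and a fit of the humanized groups alone called 182. Leaving out both low-correlation libraries, added after seeing the data, called 2137 genes in humanized and 3046 in wild-type mice, 3140 for the interaction, and 4505 genes and 4 members between strains. Leaving out 1 library gave 74 to 960, 1068 to 2190, 575 to 1782 and 621 to 3425 genes in the same order, and 0 to 2 members between strains; members called stayed at 0, 1 and 1 in the other 3 comparisons. The lowest counts came without humanized vehicle replicate 4 (74), wild-type TCPOBOP replicate 4 (1068 and 575) and humanized vehicle replicate 1 (621), and the highest without wild-type vehicle replicate 2 (2190) and humanized TCPOBOP replicate 1 (960, 1782 and 3425). With no normalization factors the all-gene median moved to -0.11 in humanized mice and -0.22 for the interaction, and by DESeq2 to 0.11 for the interaction. Without factors, genes called higher were 72 of 287 in humanized mice (171 of 325 with TMM), 1280 of 1758 in wild-type mice (1046 of 1691), 295 of 1223 for the interaction (449 of 963) and 1160 of 1917 between strains (918 of 2074), and DESeq2 gave 495 of 765 in humanized mice.

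The values that changed sign belong to results that passed no threshold with all libraries, and the cause was not tested. In humanized mice, leaving out 1 library gave Akr1b7 -0.50 to 0.059, Akr1c13 -0.12 to 0.030, Akr1c19 -0.098 to 0.40, Akr7a5 -0.15 to 0.39 and Aldh1l1 -0.089 to 0.17. Aldh1l1 was -0.086 without factors, and with both libraries left out Akr1c13 was 0.021, Akr7a5 -0.155 and Aldh1l1 -0.097. In wild-type mice Aldh3a2 was -0.21 to 0.24, and -0.14 without both. For the interaction, Akr1c6 was -0.070 to 0.42, Akr1c13 -0.0099 to 0.28, Akr1a1 -0.015 to 0.23 and Aldh1b1 -0.70 to 0.26. Aldh1b1 was 0.013 by DESeq2 and 0.015 with its size factors. Without factors Akr1c6 was -0.095, Akr1c13 -0.089 and Akr1a1 -0.13, and without both libraries Akr1a1 was -0.17, Akr7a5 -0.068 and Aldh1l1 -0.058. Between strains, Akr1b7 was -0.21 to 1.43, Akr1c6 -0.44 to 0.038, Akr1c19 -0.37 to 0.16, Akr1a1 -0.084 to 0.12 and Aldh2 -0.081 to 0.14. Akr1a1 was 0.019 and Aldh2 0.030 without factors, Aldh2 was 0.013 with the replicate block, and they were 0.13 and 0.15 without both libraries. Counts of 5 to 55 for Akr1b7 in 12 of 16 libraries limit how firmly its level outside wild-type TCPOBOP livers is known.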
